A study of Mus musculus with 7 samples.

Results

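The genes described here encode the machinery that brings proteins into mitochondria, folds them there and degrades them. They are all genes of the deposited count table whose mouse symbol starts with Timm or Tomm followed by a digit, which gave 15 Timm and 10 Tomm genes, and 20 further genes named individually for mitochondrial chaperones, proteases, the presequence peptidase and inner membrane scaffolds. This made 45 of 22027 genes. All 45 were listed, and 42 had enough reads to be tested.

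The study sequenced messenger RNA from left ventricle of C57BL/6J mice aged 12 months. The 4 libraries labelled G3 came from telomerase-deficient mice, and the 3 labelled G3 PGC1aOE from telomerase-deficient mice with PGC1alpha overexpressed, so both groups carry the telomerase deficiency. The labels give neither the deleted telomerase gene nor the promoter of the overexpression. They do not say whether libraries came from separate animals, and p-values therefore reflect only how these libraries vary, which may be technical. Total counts ran from 10106705 to 16056740 per library.

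Nearly all mitochondrial proteins are made in the cytosol as precursors. They cross the outer membrane through the TOM complex, and are then handed to the TIM23 translocase for the matrix, to the small TIM chaperones and TIM22 for carrier proteins of the inner membrane, or to the MIA oxidation pathway of the intermembrane space. In the matrix, presequences are cut off by the processing peptidase, folding is helped by HSP60 with HSP10 and by mitochondrial HSP70, and damaged proteins are removed by ATP-dependent proteases. Heart muscle is rich in mitochondria and depends on this machinery, and PGC1alpha, encoded by Ppargc1a, is a coactivator of genes of mitochondrial biogenesis.

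The message of Ppargc1a did not show the labelled overexpression. In CPM, counts scaled to a common library total with TMM factors, G3 1 to 4 held 94.6, 56.7, 118 and 86.6 CPM, and G3 PGC1aOE 1 to 3 held 103, 43.9 and 58.0 CPM. The groups overlapped, and the log2 fold change was −0.38 at a standard error (SE) of 0.34 (edgeR's quasi-likelihood test with Benjamini-Hochberg adjustment, adjusted p = 0.847, and exact permutation p = 0.314, 2-sided). The measured message goes against the label, so each direction below rests on the label alone. The cardiomyocyte markers Myh6, Tnnt2, Tnni3, Actc1, Myl2, Myl3, Ttn and Ryr2 were detected in all 7 libraries, and their summed level ran from 44749 to 61316 CPM in G3 and from 47696 to 71638 CPM in the libraries labelled G3 PGC1aOE. Among all tested genes, G3 PGC1aOE 2 was the highest library for 26.2% and the lowest for 27.2%, and no other library exceeded 16.2% for either. In bulk tissue, fewer cells of a type and less RNA per cell cannot be told apart.

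No gene of the machinery passed the threshold of an adjusted p of 0.05. By edgeR 0 of 42 members were called, against 0% of the 12674 tested genes, and DESeq2 and limma voom called 0 members too. At an unadjusted p under 0.05 stood 1 member, Clpx, which is 2.38% of the members beside 4.32% of all tested genes (548 genes). It was lower, beside 1.27% of all tested genes, and 0 members were higher, beside 3.05%. Which members stood there depended on the fit. Upper quartile scaling gave 2 higher, Tomm7 and Timm9, and 0 lower (4.76% beside 4.78% of genes). With limma voom and sample weights 4 were higher, Tomm5, Tomm7, Timm8a1 and Timm9, and Clpx was lower (11.9% beside 8.78%). Of the 42 members, 22 had a higher and 20 a lower value in the libraries labelled G3 PGC1aOE. The lower share was 47.6%, beside 49.1% of all tested genes, and the higher share 52.4%, beside 50.9%. On log2(FPKM + 1), a scale that shifted the median of all tested genes by −0.088, 28 of 42 members were lower, which is 66.7% beside 62.0% of all tested genes. The median log2 fold change over the members was 0.036, beside 0.0076 over all tested genes, and the members ran from −0.65 for Clpx to 0.73 for Timm10b. All members had an adjusted p of 0.847 or above.

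The medians of the role groups lay on both sides of zero, and for 2 groups the side depended on the scaling. In the TOM complex 6 of 8 tested members had higher values, at a median log2 fold change of 0.083. On log2(FPKM + 1) only 3 of 8 were higher and the median was −0.039, beside −0.081 over all tested genes on that scale. Among the small TIM chaperones, TIM22 and the MIA pathway, 7 of 9 were higher, with a median of 0.40. In TIM23 and its motor, 5 of 8 were higher, with a median of 0.054. On log2(FPKM + 1) 1 of 8 was higher and the median was −0.080, again beside −0.081 over all tested genes. Of the quality control proteases, 7 of 8 had lower values, with a median of −0.23. The matrix folding chaperones had 3 of 4 lower with a median of −0.20, the 2 subunits of the processing peptidase lay on either side with a median of −0.17, and of the prohibitins and Immt 2 of 3 were lower with a median of −0.074. The sign of the median in the small TIM group, the chaperones, the proteases, the peptidase and the scaffolds was the same under RLE, upper quartile, DESeq2 and both FPKM scalings. No member of any group passed the threshold in either direction.

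**Figure D1:**
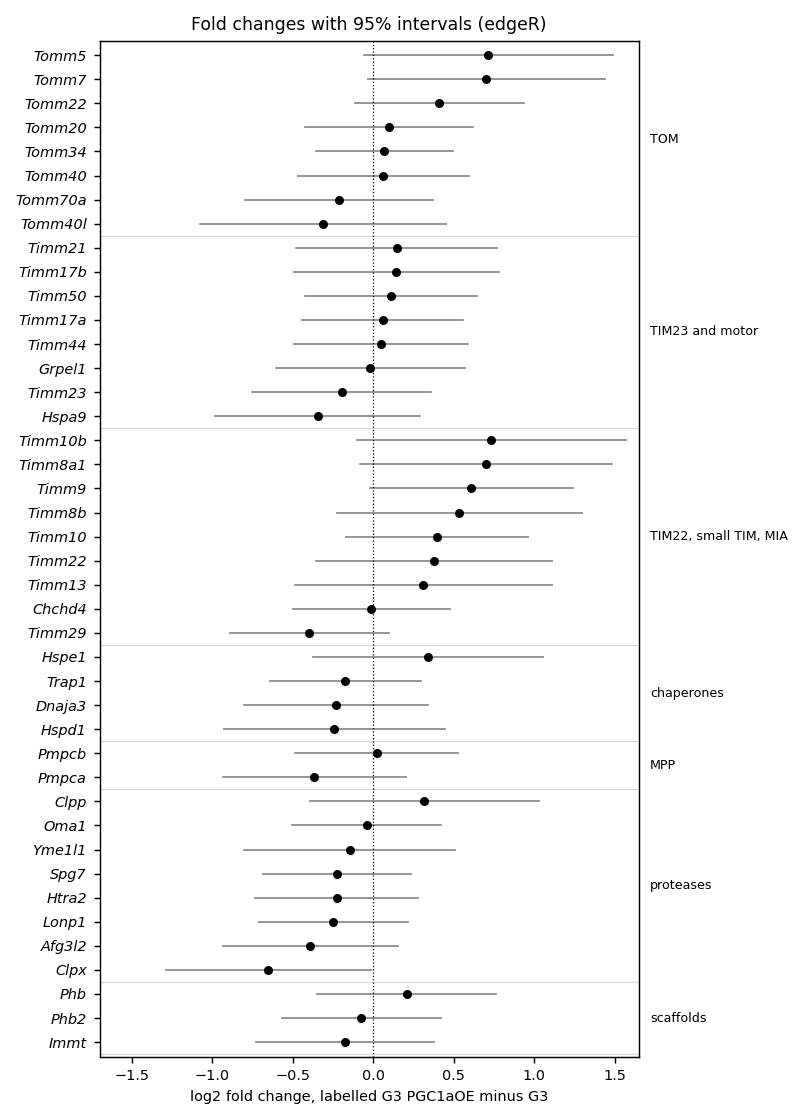
Log2 fold change (x axis, libraries labelled G3 PGC1aOE minus G3) of the 42 tested genes, ordered by role; points are edgeR estimates and bars are 95% intervals. All intervals but that of Clpx include 0, and the small TIM genes lie mostly to the right and the proteases mostly to the left.

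The members spanned a wide range of levels per length. The deposited FPKM (fragments scaled to gene length and library total) averaged over the 7 libraries was 360 for Hspa9, 259 for Phb, 197 for Phb2, 181 for Hspd1, 170 for Immt, 155 for Hspe1 and 148 for Timm8b. Hspa9 encodes mitochondrial HSP70, which pulls precursors through TIM23 and folds them, and the prohibitins Phb and Phb2 form ring-shaped scaffolds in the inner membrane. Hspa9 was first in 6 libraries, and in G3 PGC1aOE 2 it stood at 231 FPKM below Phb at 333. Neighbours in this order differed by less than the spread over libraries, for Hspd1 ran from 127 to 274 FPKM, Immt from 126 to 214 and Hspe1 from 114 to 220. The other end of the tested range was Timm8a1, with a mean of 1.78 FPKM.

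**Figure D2:**
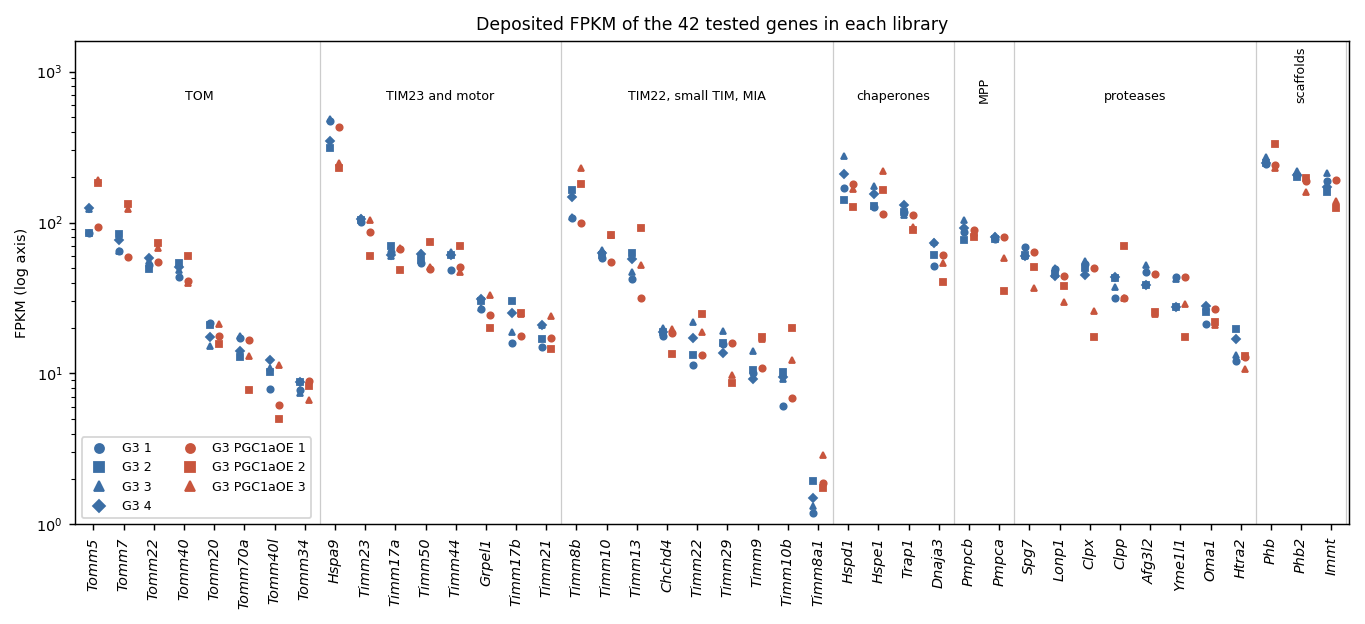
Deposited FPKM (y axis, log scale) of the 42 tested genes in each of the 7 libraries; blue marks G3, red the libraries labelled G3 PGC1aOE, and marker shape gives the replicate. Hspa9, Phb, Phb2, Hspd1 and Immt are the most abundant on average, and red squares and triangles often lie apart from the red circle.

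Members with too few reads to be tested were 3. Timm8a2, a paralog of Timm8a1, had 0 counts in all 7 libraries, which allows up to 0.273 CPM in G3 1, the shallowest library, from a floor of 3 counts. Tomm20l, a paralog of Tomm20, had 0, 0, 1 and 1 counts in G3 1 to 4 and 0 in each library labelled G3 PGC1aOE. Tomm6, a small TOM subunit, had 0, 5, 0 and 5 counts in G3 1 to 4, and G3 PGC1aOE 1 to 3 had 4, 5 and 1 counts.

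In the TOM complex, the small subunits Tomm5 and Tomm7 had the largest positive values, and Tomm40l and Tomm70a were the members below 0. Tomm5, a small subunit at the pore and the most abundant TOM gene, stood at 85.0, 84.9, 124 and 125 FPKM in G3 1 to 4 and at 93.3, 182 and 190 FPKM in G3 PGC1aOE 1 to 3. Tomm7, a small subunit that tunes assembly of the complex, stood at 64.6, 83.8, 65.1 and 76.7 FPKM in G3 and at 58.7, 133 and 124 FPKM in the libraries labelled G3 PGC1aOE. For both genes G3 PGC1aOE 2 and 3 were above every G3 library and G3 PGC1aOE 1 was within or below them, so the groups overlapped. The log2 fold change was 0.72 (SE 0.35) for Tomm5 and 0.70 (SE 0.33) for Tomm7 (edgeR, adjusted p = 0.847 for both, with 95% intervals from −0.058 to 1.49 and from −0.032 to 1.44). With the length trend removed, Tomm5 stood at 0.24 and Tomm7 at 0.55.

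Tomm40, the channel of the outer membrane, had overlapping groups, with 43.4, 53.7, 48.2 and 50.5 FPKM in G3 1 to 4 and 40.9, 60.1 and 39.6 FPKM in G3 PGC1aOE 1 to 3. Its log2 fold change was 0.063, with a 95% interval from −0.47 to 0.59. The paralog Tomm40l stood at 7.95, 10.3, 10.9 and 12.2 FPKM in G3 and at 6.18, 4.99 and 11.3 FPKM in the libraries labelled G3 PGC1aOE. It was a lesser form in each library, at 0.210 ± 0.0279 of Tomm40 per length (SD, n = 4) in G3 and 0.174 ± 0.104 (SD, n = 3) in the libraries labelled G3 PGC1aOE. The presequence receptor gene Tomm20 ran from 15.3 to 21.6 FPKM over all libraries, with a log2 fold change of 0.097. Its partner Tomm22 had 0.41, the carrier receptor gene Tomm70a −0.22 and the cytosolic cochaperone gene Tomm34 0.069, with no call.

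In TIM23 and its motor the values lay between −0.34 for Hspa9 and 0.15 for Timm21. Hspa9 stood at 468, 311, 488 and 348 FPKM in G3 1 to 4 and at 428, 231 and 247 FPKM in G3 PGC1aOE 1 to 3. On FPKM G3 PGC1aOE 2 and 3 were below all G3 libraries, and G3 PGC1aOE 1 was among them. On TMM-scaled CPM G3 PGC1aOE 3, at 383 CPM, was above G3 2, at 362 CPM. The log2 fold change of Hspa9 was −0.34 (SE 0.29, edgeR, adjusted p = 0.847). The exchange factor gene of this HSP70, Grpel1, had a log2 fold change of −0.018. On FPKM the channel gene Timm23 was nearly constant in G3, at 101, 104, 107 and 106 FPKM. It stood at 85.9, 60.3 and 104 FPKM in the libraries labelled G3 PGC1aOE. On TMM-scaled CPM Timm23 ran from 66.4 to 80.4 CPM in G3 and stood at 55.2, 46.8 and 88.2 CPM in G3 PGC1aOE 1 to 3. Its log2 fold change was −0.20, and those of the presequence receptor gene Timm50 and the motor anchor gene Timm44 were 0.11 and 0.051.

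Timm17a and Timm17b are alternative partners of the TIM23 channel. Timm17a stood at 64.0, 70.3, 59.8 and 61.1 FPKM in G3 1 to 4 and at 66.6, 48.5 and 67.6 FPKM in G3 PGC1aOE 1 to 3. Timm17b was the lesser form in every library, at 16.01, 30.1, 18.9 and 25.3 FPKM against 17.6, 25.1 and 24.8 FPKM. Its ratio to Timm17a ran from 0.250 to 0.518 over the 7 libraries, with overlapping groups. Timm21, which links TIM23 to the TOM complex, had a log2 fold change of 0.15.

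The small TIM genes all had positive values, from 0.31 for Timm13 to 0.73 for Timm10b. Their proteins form hexamers that carry hydrophobic precursors across the intermembrane space. Timm8b, the most abundant, stood at 108, 164, 109 and 147 FPKM in G3 1 to 4 and at 98.7, 180 and 228 FPKM in G3 PGC1aOE 1 to 3. Timm9 stood at 10.04, 10.6, 14.2 and 9.21 FPKM against 10.95, 17.3 and 17.0 FPKM. In both genes G3 PGC1aOE 2 and 3 exceeded all G3 libraries and G3 PGC1aOE 1 did not. The log2 fold change was 0.53 (SE 0.34) for Timm8b and 0.61 (SE 0.28) for Timm9 (edgeR, adjusted p = 0.847 for both). With each library's trend on gene length removed, Timm8b stood at −0.022 and Timm9 at 0.36.

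The other small TIM genes were Timm10, Timm10b, Timm13 and Timm8a1, with log2 fold changes of 0.40, 0.73, 0.31 and 0.70. With the length trend removed these were −0.041, 0.42, 0.19 and 0.65. Timm10, the hexamer partner of Timm9, was 4.67 to 6.82 times as abundant per length as Timm9 over the 7 libraries. Timm8a1, whose human counterpart is mutated in deafness-dystonia syndrome, was at 0.0113 ± 0.00089 of Timm8b in G3 (SD, n = 4). Timm22, the carrier channel gene, had 0.38, and Timm29, another subunit of that translocase, had −0.40. Chchd4, the oxidoreductase of the MIA pathway, had −0.012, with a range from 13.4 to 19.9 FPKM over all libraries.

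HSP60, encoded by Hspd1, and its lid HSP10, encoded by Hspe1, form a folding chamber, and their genes lie head to head on chromosome 1. Their fold changes had opposite signs, each at about its SE. Hspd1 stood at 170, 140, 274 and 209 FPKM in G3 1 to 4 and at 179, 127 and 166 FPKM in G3 PGC1aOE 1 to 3. Hspe1 stood at 126, 129, 176 and 154 FPKM against 114, 165 and 220 FPKM. The log2 fold changes were −0.24 (SE 0.31) for Hspd1 and 0.34 (SE 0.32) for Hspe1 (edgeR, adjusted p = 0.874 and 0.848). Hspe1 was at −0.023 without G3 PGC1aOE 3, and Hspd1 was at 0.10 with G3 3 and G3 PGC1aOE 2 both left out, so the opposite signs depended on which libraries were used. The ratio of Hspe1 to Hspd1 was 0.740, 0.920, 0.641 and 0.734 in G3 and 0.636, 1.30 and 1.33 in the libraries labelled G3 PGC1aOE. G3 PGC1aOE 2 and 3 were thus above 1 and the other 5 libraries below it. The reference annotation names 6 pseudogene copies of Hspe1 and 5 of Hspd1, and how the authors' counting treated reads shared with copies is not given in the sources used here.

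The stretch upstream of Hspe1 is shown because a promoter window of Hspd1 overlaps it and it holds both a heat shock element and a receptor site. The sequence holds the 250 bases upstream of the Hspe1 start in RefSeq (GRCm38.p6, chr1:55087898-55088147, plus strand), and 1 of the 2 Hspd1 windows shares 285 of 300 bases with the Hspe1 window. Capitals mark first 2 overlapping matches to the heat shock element, a run of alternating GAA and TTC blocks searched on both strands, and then a single site AAGGTCA of the estrogen-related receptors (ERR), the motif of receptors that PGC1alpha coactivates.
Hspe1 upstream: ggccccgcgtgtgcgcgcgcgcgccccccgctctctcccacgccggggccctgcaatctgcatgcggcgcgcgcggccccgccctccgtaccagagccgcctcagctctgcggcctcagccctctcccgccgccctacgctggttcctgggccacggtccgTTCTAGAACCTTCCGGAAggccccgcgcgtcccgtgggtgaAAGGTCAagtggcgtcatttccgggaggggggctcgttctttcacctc

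RefSeq promoter windows, from 250 bases before to 50 after each start, were found for 39 of the 45 members, and Hspa9, Afg3l2, Timm21, Htra2, Tomm7 and Tomm40l had none. On either strand, AAGGTCA was in windows of 6 members, 15.4% of them, beside 5.38% of the 27025 genes with a window. These members were Hspd1, Hspe1, Timm23, Timm44, Timm8b and Trap1, and their log2 fold changes ran from −0.24 to 0.53 with both signs. The matches of Hspd1 and Hspe1 are 1 and the same genomic site, counted once for each gene. The heat shock element was in windows of 3 members, Hspd1, Hspe1 and Timm9 (7.69% beside 0.662%), and here too Hspd1 and Hspe1 share 1 stretch. The GABPA motif CCGGAAGT was in windows of 8 members (20.5% beside 4.31%), the YY1 motif AAGATGGC in 1 (2.56% beside 3.19%), and the palindromic NRF1 motif and the ATF4 composite motif TGATGNAAT in 0, beside 1.07% and 1.08% of genes. The stretches around the ERR site outside the Hspd1 and Hspe1 pair are shown so that the bases flanking it can be compared, in the gene's orientation with the site in capitals, at chr9:50603797-50603823 (plus strand), chr8:4275894-4275920 (minus), chr14:32201861-32201887 (minus) and chr16:4077937-4077963 (minus) of GRCm38.p6.
Timm8b: tcgagggctcAAGGTCActctacaacc
Timm44: gcgacgcaggAAGGTCAcacgggctct
Timm23: cggcgcccggAAGGTCAgcgtggtgaa
Trap1: actgagatccAAGGTCAaaaagtacag

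The other chaperones and the processing peptidase had mostly lower values. Trap1, the mitochondrial HSP90, ran from 112 to 131 FPKM in G3 and stood at 113, 89.0 and 93.6 FPKM in G3 PGC1aOE 1 to 3, with a log2 fold change of −0.17. Dnaja3, a DnaJ cochaperone of the matrix, had −0.23. The catalytic subunit gene of the presequence peptidase, Pmpcb, stood at 86.8, 76.3, 104 and 92.5 FPKM in G3 1 to 4 and at 89.1, 79.7 and 84.8 FPKM in G3 PGC1aOE 1 to 3. On FPKM Pmpca, the substrate-binding subunit gene, was nearly constant in G3 at 77.8, 78.3, 81.3 and 80.2 FPKM. It stood at 80.7, 35.4 and 57.8 FPKM in the libraries labelled G3 PGC1aOE. Pmpca was thus below the G3 range of FPKM in G3 PGC1aOE 2 and 3 and within it in G3 PGC1aOE 1. On TMM-scaled CPM G3 ran from 80.9 to 99.1 CPM, and G3 PGC1aOE 3, at 79.6 CPM, was only just below that range. The log2 fold change of Pmpca was −0.37 (SE 0.26, edgeR, adjusted p = 0.847), while Pmpcb had 0.022.

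Among the proteases, Clpx, the ATP-dependent unfoldase that feeds the ClpP protease, had the lowest value of all members. It stood at 52.7, 50.3, 55.9 and 44.9 FPKM in G3 1 to 4 and at 49.7, 17.4 and 26.0 FPKM in G3 PGC1aOE 1 to 3. On TMM-scaled CPM the groups did not overlap, with 91.7, 84.2, 106 and 89.8 CPM against 84.2, 35.5 and 57.9 CPM, but G3 2 and G3 PGC1aOE 1 agreed to 3 digits. On FPKM the groups overlapped. Clpx was the only member without overlap on CPM, 2.38% of the members beside 4.58% of all tested genes in either direction, 2.39% lower and 2.19% higher. The log2 fold change was −0.65 (SE 0.29), and its 95% interval ran from −1.29 to −0.017 (edgeR, unadjusted p = 0.0451, adjusted p = 0.847). It was −0.998 without G3 PGC1aOE 1 and −0.31 with G3 3 and G3 PGC1aOE 2 both left out.

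Clpp, the peptidase that works with Clpx, lay on the other side. It stood at 31.5, 42.9, 37.4 and 43.6 FPKM in G3 1 to 4 and at 31.7, 69.4 and 31.6 FPKM in G3 PGC1aOE 1 to 3, so only G3 PGC1aOE 2 left the G3 range upwards (log2 fold change 0.32, SE 0.32, adjusted p = 0.852 by edgeR). The ratio of Clpx to Clpp was 1.67, 1.17, 1.497 and 1.03 in G3 and 1.57, 0.250 and 0.821 in the libraries labelled G3 PGC1aOE. Lonp1, the other soluble matrix protease, stood at 49.6, 45.6, 50.2 and 44.3 FPKM against 43.9, 38.1 and 29.9 FPKM. All 3 libraries labelled G3 PGC1aOE were below the G3 range on FPKM, while on TMM-scaled CPM they overlapped it (135, 120, 150 and 139 CPM against 117, 122 and 105 CPM), with a log2 fold change of −0.25 and an SE of 0.21.

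The subunits of the m-AAA protease of the inner membrane, Afg3l2 and Spg7, had lower values together. Afg3l2 stood at 46.7, 38.8, 52.0 and 38.5 FPKM in G3 1 to 4 and at 45.4, 25.4 and 24.7 FPKM in G3 PGC1aOE 1 to 3. Spg7, the gene mutated in a human form of spastic paraplegia and the most abundant protease gene here, stood at 69.1, 61.3, 60.3 and 60.4 FPKM against 63.8, 50.7 and 36.7 FPKM. On FPKM G3 PGC1aOE 1 was inside the G3 range and G3 PGC1aOE 2 and 3 below it for both. On TMM-scaled CPM this held for Afg3l2. Spg7 in G3 PGC1aOE 2, at 86.5 CPM, was then inside the G3 range of 85.6 to 101 CPM. The log2 fold changes were −0.39 (SE 0.25) and −0.23 (SE 0.21) (edgeR, adjusted p = 0.847 for both). Yme1l1, the i-AAA protease gene, had −0.15, Oma1, a stress-activated metalloprotease gene, −0.041, and Htra2, a serine protease gene of the intermembrane space, −0.23.

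Phb stood at 244, 249, 270 and 246 FPKM in G3 1 to 4 and at 239, 333 and 229 FPKM in G3 PGC1aOE 1 to 3, a log2 fold change of 0.21 (SE 0.25) (edgeR, adjusted p = 0.870). Phb2 had −0.074, and Immt, the core subunit of the MICOS complex that shapes cristae, had −0.18. The prohibitins assemble with each other, and their ratio was tight within G3. Phb2 per Phb was 0.841, 0.809, 0.807 and 0.836 in G3, with a mean of 0.823 ± 0.0174 (SD, n = 4), and 0.791, 0.596 and 0.696 in the libraries labelled G3 PGC1aOE, with a mean of 0.694 ± 0.0976 (SD, n = 3). The ratio did not overlap between the groups (exact permutation p = 0.0286, 2-sided, the smallest that 35 splits can give). It was 1 of 14 ratios of partner genes compared, and its pair was chosen after values were seen. Its permutation p, adjusted over the 14 by Benjamini-Hochberg, was 0.4. With 35 splits a single ratio among 14 could not pass this correction. The adjusted p thus decides nothing about the ratio, and no difference is claimed.

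**Figure D3:**
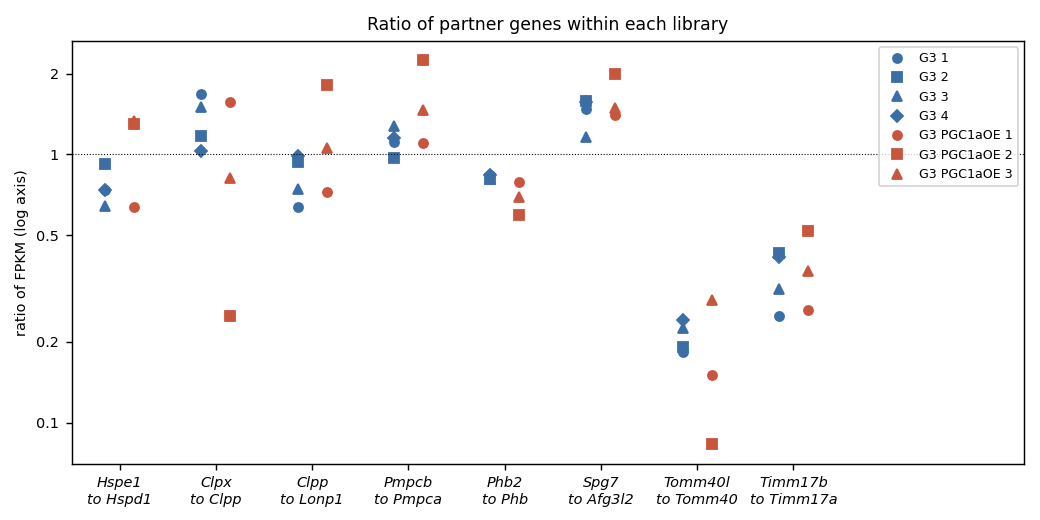
Ratio of deposited FPKM between 8 pairs of partner genes (y axis, log scale) in each library; blue marks G3, red the libraries labelled G3 PGC1aOE, and shape gives the replicate. The ratios of Hspe1 to Hspd1 and of Clpx to Clpp put G3 PGC1aOE 2 and 3 apart from the other libraries, and that of Phb2 to Phb is 0.807 to 0.841 in G3.

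The members' median varied more among the libraries of a group than between the groups. For each library, the deviation of every member from the midpoint of the group means was taken in log2 CPM, and the median over 42 members was −0.21, −0.095, 0.16 and 0.16 log2 units in G3 1 to 4. For G3 PGC1aOE 1 to 3 it was −0.23, −0.021 and 0.17. The group means were 0.0025 ± 0.187 (SD, n = 4) and −0.025 ± 0.202 (SD, n = 3), a difference of −0.028. The same median over all tested genes lay between −0.0017 and 0.029 in every library. TMM scaling over these same genes keeps that value near 0, so it gives no yardstick for the spread of 42 genes. G3 1, G3 2 and G3 PGC1aOE 1 were the highest library for 0 of 42 members each, beside 15.01%, 9.82% and 10.8% of all tested genes. G3 PGC1aOE 3 was the highest for 16 of 42 members and G3 3 for 11, beside 13.8% and 16.2% of all tested genes. G3 PGC1aOE 2 was the lowest for 14 of 42 and the highest for 8, beside 27.2% and 26.2% of all tested genes. G3 PGC1aOE 1 was the lowest for 11 and G3 1 for 10, beside 11.1% and 13.7%.

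Gene length moved with these values. Length here is the one behind the deposited FPKM, and it ran from 527 bp for Timm8b to 4986 bp for Tomm20. Of the 28 members below 1500 bp, 19 had higher values in the libraries labelled G3 PGC1aOE, at a median log2 fold change of 0.14, beside 0.16 over the 4206 tested genes below that length. The lower share was 32.1% of these 28 members, beside 30.4% of those genes. Of the 14 members of 1500 bp and above, 11 had lower values, with a median of −0.22, beside −0.070 over 8468 tested genes. Their lower share was 78.6%, beside 58.3% of the tested genes of that length. Across the 42 members the Spearman correlation of length with log2 fold change was −0.57, and across all tested genes it was −0.34. These are descriptions over genes measured in the same 7 libraries. With each library's trend on length removed, the medians were −0.032 for the shorter members and −0.16 for the longer ones. Of the 42 members, 7 changed sign when the trend was removed. Timm8b, Timm10, Timm44, Timm50, Pmpcb and Phb went from above to below 0, the last from 0.21 to −0.043, and Grpel1 went from below to above. Clpx stood at −0.65 with and without the trend.

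**Figure D4:**
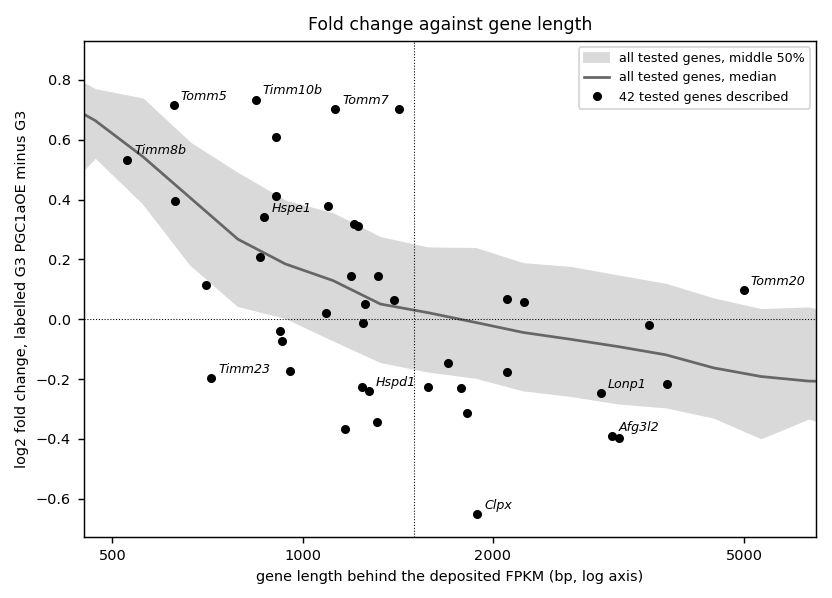
Log2 fold change (y axis, libraries labelled G3 PGC1aOE minus G3) against gene length (x axis, bp, log scale) for the 42 tested genes as black points, with the running median and middle 50% of all tested genes in grey and a dotted line at 1500 bp. Points and grey median both run from higher values in short genes to lower values in long ones, and Clpx lies lowest.

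By library, the shorter members lay above the longer ones in G3 PGC1aOE 2 and 3, and below them in G3 1, G3 2, G3 3 and G3 PGC1aOE 1. The shorter members deviated by 0.35 and the longer by −0.36 in G3 PGC1aOE 2. In G3 PGC1aOE 3 these values were 0.29 and 0.055. In G3 1 they were −0.32 and 0.11, in G3 3 they were 0.087 and 0.36, and in G3 PGC1aOE 1 they were −0.30 and 0.015. Over all tested genes the corresponding values were 0.26 and −0.13 in G3 PGC1aOE 2 and 0.15 and −0.072 in G3 PGC1aOE 3. They were −0.12 and 0.059 in G3 1, −0.14 and 0.076 in G3 3, and −0.15 and 0.11 in G3 PGC1aOE 1. In G3 4 the classes of members lay close together, at 0.16 each. Without G3 PGC1aOE 2 the medians of the log2 fold change were 0.016 for the shorter and −0.086 for the longer members.

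**Figure D5:**
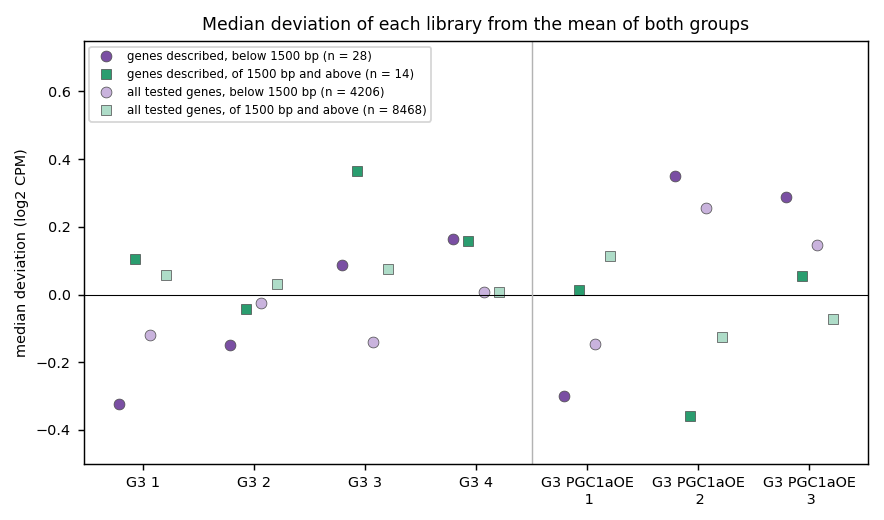
Median deviation of each library from the midpoint of the group means (y axis, log2 CPM) for the genes described and for all tested genes, split at 1500 bp. In G3 PGC1aOE 2 the 2 length classes of the genes described lie at 0.35 and −0.36, and in G3 1, G3 2, G3 3 and G3 PGC1aOE 1 the order is the opposite.

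Without G3 PGC1aOE 1, 13 members stood at an unadjusted p under 0.05, which is 31% of the members beside 19.1% of all tested genes, and the lowest adjusted p of a member was 0.0982 (edgeR). Of these, 10 were higher, namely Tomm5, Tomm7, Tomm22, Timm8a1, Timm8b, Timm9, Timm10, Timm10b, Timm13 and Hspe1 (23.8% beside 10.4% of genes). These 10 ran from 527 to 1421 bp in length, while the 10.4% covers tested genes of every length. A comparison with genes of like length was not tested. Timm29, Clpx and Afg3l2, of 1888 to 3170 bp, were lower (7.14% beside 8.71%). Without G3 PGC1aOE 2 the number at that level was 0 of 42, beside only 1.8% of all tested genes.

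The sample descriptions carry a code with a number, below 80 in G3 1 to 3 and G3 PGC1aOE 1, and 80 or above in G3 4 and G3 PGC1aOE 2 and 3. The same code holds G2 for G3 1, G3 3 and G3 PGC1aOE 1, although the titles of all 7 say G3. It starts with C for G3 1 and G3 2, with P for G3 4 and with PC for G3 PGC1aOE 1, 2 and 3. G3 3 has no such letter, so the G3 libraries are not uniform by code. No label explains the code. The median difference in log2 CPM over the members was −0.14 below 80 and −0.098 at 80 and above, beside 0.032 over all libraries, so the sign within both code classes was opposite to the pooled one. For the small TIM, TIM22 and MIA genes the values were −0.22 and 0.49, beside 0.36 pooled, and for the TOM genes −0.14 and 0.10. For the proteases they were −0.11 and −0.35, and for the matrix chaperones −0.11 and −0.43. The class below 80 holds 1 library labelled G3 PGC1aOE and the other class 1 labelled G3. Leaving out G3 PGC1aOE 1 thus left only numbers of 80 or above among the libraries labelled G3 PGC1aOE.

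Genes that work beside the members were listed with earlier results known. Of 18 other import and sorting genes, 12 had higher values, at a median log2 fold change of 0.15, and 0 passed in either direction. Among them were Pam16, a subunit of the import motor, at 0.69 (SE 0.34), and Dnlz, a chaperone of mitochondrial HSP70, at 0.57 (SE 0.30). Of 11 other proteases and chaperones, 7 were lower, with a median of −0.024 and 0 calls. Pitrm1, the peptidase that degrades cut presequences, stood at 10.98, 11.1, 11.3 and 10.3 FPKM in G3 1 to 4 and at 10.9, 3.89 and 7.65 FPKM in G3 PGC1aOE 1 to 3, with a log2 fold change of −0.46 and an SE of 0.28. Atp23, an inner membrane metallopeptidase gene, had 0.83.

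All 6 other MICOS subunit genes had values above 0, with a median of 0.30 and 0 calls. The small subunit genes Micos10, listed as Minos1, and Micos13, listed as 2410015M20Rik, had 0.50 and 0.51. Of 12 tested regulators and targets of the mitochondrial stress response, 9 were higher, with a median of 0.17 and 0 calls. Ddit3, which encodes the transcription factor CHOP, stood at 18.2, 20.4, 11.8 and 20.7 FPKM in G3 and at 17.2, 42.5 and 24.8 FPKM in the libraries labelled G3 PGC1aOE, a log2 fold change of 0.81 (SE 0.34) (edgeR, adjusted p = 0.847). Gdf15, a secreted stress factor gene, had 0.80. The 8 cytosolic chaperone genes split 4 and 4, with Dnaja1 at 0.45 and Dnaja2 at −0.34, and 0 calls.

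Markers of other cell types also differed between libraries. Fibroblast markers had higher values in 9 of 10 cases, with summed levels from 648 to 1220 CPM in G3 and from 1281 to 1827 CPM in the libraries labelled G3 PGC1aOE. Endothelial sums ran from 747 to 915 and from 759 to 1430 CPM, macrophage sums from 176 to 445 and from 319 to 370 CPM, adipocyte sums from 420 to 693 and from 437 to 1302 CPM, and Schwann cell sums from 10.6 to 19.9 and from 23.2 to 31.3 CPM. Values were higher for 7 of 8 endothelial, 7 of 8 macrophage, 6 of 6 tested adipocyte and 5 of 5 tested Schwann cell markers. The adipocyte sum was 93.5% to 99.8% Fabp4, a fatty acid binding protein gene that heart capillary endothelium also expresses. The other adipocyte markers together held 1.35 to 32.6 CPM in G3 and 8.22 to 50.4 CPM in the libraries labelled G3 PGC1aOE. The adipocyte gene Ucp1 was at 0 counts in all libraries, and Lep in 5 of 7. The part of cell type makeup in the members' values was not tested.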

How the data were processed

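CASAVA, Bowtie 0.12.2 and the mm9 build are named, without a role, per the submitters' processing notes. How reads were counted, with which annotation and whether by strand, is not given in the sources used here. The authors deposited read counts per Ensembl gene, not normalized, and FPKM, which could be recomputed from those counts, each library's total and a single length per gene. FPKM served for levels and gene lengths. Symbols came from a reference table of Ensembl identifiers, which matched 21748 of 22027 identifiers. In the GENCODE annotation of a later build 30 of the 45 members overlap another gene, and the TruSeq kit does not mark strand, so reads of overlapping genes cannot be told apart.

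Counts were filtered (filterByExpr), scaled by TMM and tested over 12674 genes with edgeR 4.0.16 (R 4.3.3), quasi-likelihood, robust, group as the only term, 2-sided, Benjamini-Hochberg threshold 0.05. Log2 CPM used a prior count of 2. Ratios and Ppargc1a were compared by exact permutation over 35 splits. DESeq2 1.42.0, limma 3.58.1, other scalings, filters and covariates, a length trend and each library left out were alternatives. The scripts were tested on simulated counts. Members and lists were chosen with earlier results of these data known. Genes given values in every sample were, per role group, the most abundant, that of smallest p, any without overlap, and fixed pairs; others were chosen after their values were seen. Intervals and floors cover counting error or the fitted spread only.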

Additional observations from a re-analysis of the deposited data

Results flagged for a closer look

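In 2 members 1 of the 4 G3 libraries lay far from the others, both times G3 3. Timm9 measured 12.9 CPM there against 8.38 to 8.86 CPM in the other 3, and Timm29 measured 61.0 CPM against 44.7 to 45.8 CPM. The gap was 0.894 and 0.930 of the group's range. Chance gives such a gap in about 1 of 20 groups, and 42 groups were examined.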

How the results depend on the processing

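No member was called under any of 24 alternatives, and 18 of 42 kept the sign of their log2 fold change in all of them. The number of all genes called was 0, but 3 with DESeq2 and 4 with the replicate block. The members' median, 0.036 as reported, ran from −0.096 to 0.094 when single libraries were left out and from 17 to 26 members were then lower, and it was −0.12 with the code number as a term (30 lower), −0.069 with the length trend removed (25 lower) and −0.082 on log2(FPKM + 1) (28 lower). With log2(FPKM + 0.1) the median of all genes shifted by −0.11, and the members' median was −0.084. The log2 fold change of Ppargc1a ran from −0.81 to −0.15 over single libraries left out and was 0.032 with G3 3 and G3 PGC1aOE 2 both left out, an alternative chosen after seeing the data, as were the GC trend and the 6 libraries without block; the cause was not tested. Whether the replicate numbers pair the libraries cannot be decided from so few libraries. Same-numbered deviations correlated at 0.38, 0.26 and −0.00025, and those of unlike numbers from −0.36 to 0.19. With the replicate block the members' median was 0.079 and without it, on the same 6 libraries, 0.085. At a spread of 31.2% (biological coefficient of variation) and 3 against 4 libraries, intervals of single members are wide, so the absence of calls does not show equal levels.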
